A study of Mus musculus with 16 samples.

Results

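A group of 9 genes of steroid hormone action was followed through the sperm RNA of Dnmt2-/- males. They comprise the estrogen receptor gene Esr1, the glucocorticoid receptor gene Nr3c1, and the hormone-responsive genes Akr1b7, Fkbp5, Glul, Sgk1, Tsc22d3, Per1 and Zbtb16. A peak, meaning a stretch of the genome where sequencing reads pile up above their surroundings, was assigned to a gene when its nearest gene was one of the 9 or when its annotation named a RefSeq transcript of one. This gave 170 of the 159135 peaks in 8 lists. These genes were chosen because peaks on their exons had already been seen in these lists, so the presence, score and rank of their peaks are given as a description with no test.

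The free RNA fraction (F) is the RNA that stayed in the aqueous phase of the sperm extract. The DNA-bound fraction (D) stayed with the genomic DNA of that male and came free when the DNA was digested with DNase. Both were sequenced from 4 males, of which males 3 and 4 received a high-fat diet (HFD, a western diet with 21% butter) and males 1 and 2 a normal diet (ND). All 8 libraries lack Dnmt2, an RNA cytosine-5 methyltransferase encoded by Trdmt1, on a C57BL/6 background, and no wild-type library was analysed here. The males were 6 to 8 months old and had been divided between the diets at 4 weeks. Sperm came from the epididymis and was separated from somatic cells by centrifugation. Lists held 25406, 7635, 10143 and 18709 peaks in F of males 1 to 4, and 3427, 49918, 22726 and 21171 peaks in D of males 1 to 4. The lowest peak of a list corresponded to 6 tags (reads) in 7 libraries and to 14 tags in D of male 2. A gene without a peak may thus still have had reads below that level. Per the paper, a peak also had to stand out from its local region, so a gene or exon without a peak may have had more reads than that. Trdmt1 had no exon, UTR, promoter-TSS or TTS peak in any library, and 3 intronic or intergenic peaks (1 in F of male 4 and 2 in D of male 2).

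Steroid receptors are transcription factors that wait in the cell with chaperones such as HSP90, bind hormone, and then act at DNA response elements near their target genes. Androgens and estrogens maintain the epithelium of the male reproductive tract, and ESR1 is known for controlling fluid reabsorption where sperm enter the epididymis. Glucocorticoids act through NR3C1 in nearly every tissue, and FKBP5, SGK1, TSC22D3 (also called GILZ), PER1 and ZBTB16 are widely used as readouts of that receptor. Mature sperm are largely silent in transcription, so their RNA is inherited from spermatogenesis, taken up on the way through the epididymis, or carried along by other cells.

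Stretches of 30 coding bases are given for exons on which 2 libraries shared a peak, to mark exon bases that lay under both peaks. They are reference bases and not reads, so they do not show which RNA the reads came from. They were checked against transcripts only, not against the genome. Each is the first stretch under both peaks that no transcript of another gene in GENCODE M21 contains, read 5′ to 3′ along the mRNA on mm10.

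Akr1b7 exon 2, under peaks of F of males 1 and 4, chr6:34415391-34415420, plus strand: ctatgtgtatcacaatgagaatgaggtggg

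Akr1b7 exon 3, under peaks of F of males 1 and 4, chr6:34416118-34416147, plus strand: ctgtgggccacattctttgagaaaagcctg

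Akr1b7 exon 9, under peaks of F of males 1 and 3, chr6:34421109-34421138, plus strand: gcttcaacaggaactggagggcctgtgacc

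Fkbp5 exon 10, under peaks of F of males 1 and 3, chr17:28402750-28402779, minus strand: gactttgagtcggccaagggcgacttcgag

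Glul exon 6, under peaks of F of males 1 and 3, chr1:153907329-153907358, plus strand: atcatctttggatagcccgttttatcttgc

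In Akr1b7 exon 2, all 68 stretches of 30 bases under both peaks were found in no transcript of another gene. In exon 3 it was 58 of 88, and in exon 9 it was 8 of 54. The corresponding counts were 105 of 105 in Fkbp5 exon 10 and 48 of 83 in Glul exon 6. Over whole mRNAs, 28.4% of the stretches of Akr1b7 and 24.8% of those of Glul recurred in transcripts of other genes, for Akr1b7 mainly in Gm13857 and for Glul mainly in Glns-ps1. Neither of these copies was named for any peak of the 8 lists. The peaks were annotated with RefSeq transcripts and the copies come from GENCODE, so this absence says nothing about reads shared with them. Among relatives of Akr1b7, the aldose reductase gene Akr1b3 had 1 exon, UTR, promoter-TSS or TTS peak, in F of male 1 (score 31.4), and Akr1b8 had none. For the other 7 genes the share was at most 3.24%.

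Peaks in exons, UTRs, the promoter-TSS or the TTS of a gene are called transcript peaks here, to keep them apart from peaks in introns and between genes, where a peak need not come from the mRNA. Of the 170 peaks, 55 were transcript peaks, 75 lay in introns and 40 were intergenic. The transcript peaks comprised 34 in exons, 14 in 3′UTRs, 3 in 5′UTRs, 3 at a TTS and 1 at a promoter-TSS. By library, F of males 1 to 4 held 39, 0, 12 and 2 of them, and D of males 1 to 4 held 0, 0, 1 and 1. The F library of male 1 therefore supplied most of them. Transcript peaks made up 72.2% of the 54 peaks of the 9 genes in that library, beside 72.3% of all its peaks. They made up, in F of male 3, 46.2% of 26 peaks, beside 16.6% of all peaks. As the 9 genes were chosen for exon peaks in these lists, nothing is read from these shares.

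**Figure D1:**
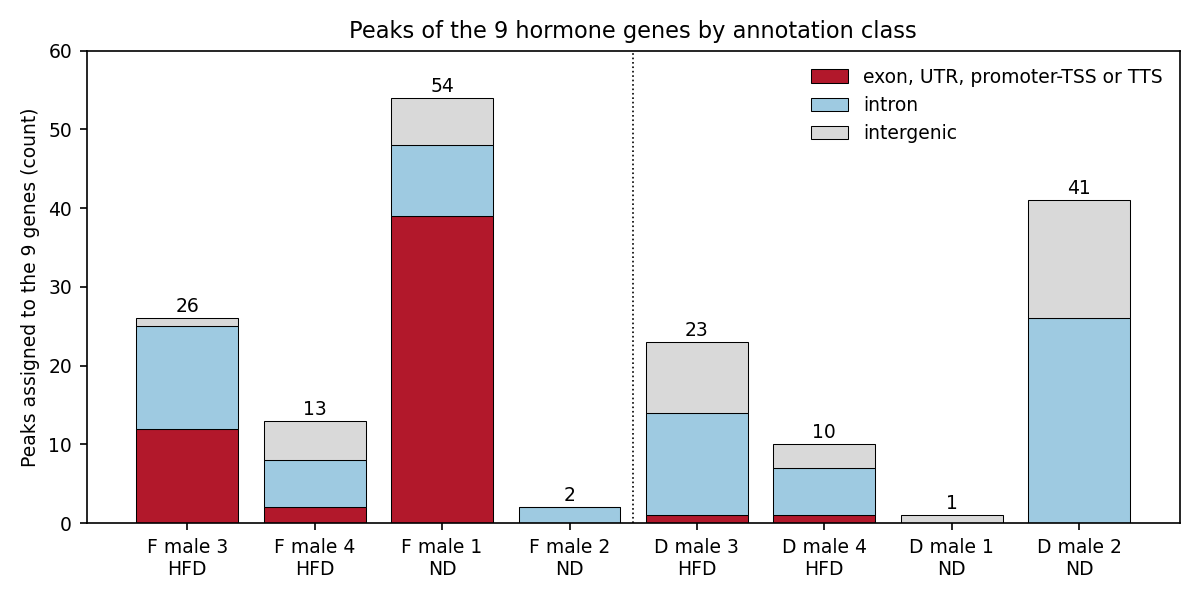
Number of peaks assigned to the 9 genes in each library (y axis, count), stacked by annotation class, with the 4 F libraries left of the 4 D libraries and HFD males left of ND males. Transcript peaks (red) fill 39 of 54 peaks in F of male 1 and 12 of 26 in F of male 3. They fill 0 of 2 in F of male 2, 2 of 13 in F of male 4, and 0 or 1 peak in each D library.

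Counted by gene, 8 of the 9 genes had a transcript peak in F of male 1, where 43.3% of all 21020 genes named in the lists had one. None had one in F of male 2 (1.10% of all genes), 5 did in F of male 3 (8.58%) and 1 in F of male 4 (2.55%). In D, no gene had one in male 1 (0.837% of all genes) or male 2 (6.52%), Glul had one in male 3 (3.65%), and Sgk1 had one in male 4 (3.15%). Since exon peaks on these genes were the reason for choosing them, nothing is read from the excess over all genes. The gene missing in F of male 1 was Zbtb16, and those present in F of male 3 were Akr1b7, Fkbp5, Glul, Nr3c1 and Zbtb16. No gene had a transcript peak in all 4 F libraries. In such bulk RNA, fewer cells of a type and less RNA per cell cannot be told apart.

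The score that the authors give each peak rises in whole steps within a list and was read as tags scaled to a common total, so 1 tag was worth 1.497 score units in F of male 1, 2.12 in F of male 3, 1.555 in F of male 4 and 2.442 in D of male 3. Scores are set against others of the same list only, by rank.

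**Figure D2:**
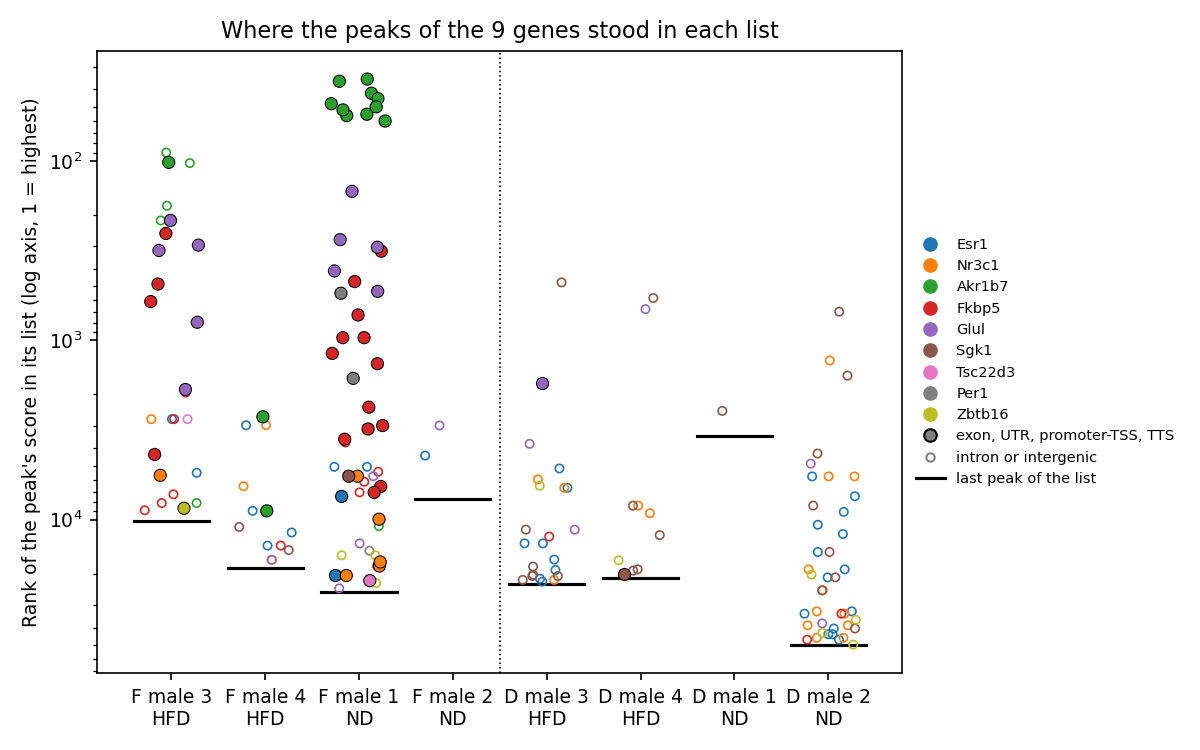
Rank of every peak of the 9 genes within the list of its library (y axis, log scale, 1 is the highest score), one column per library, coloured by gene; filled points are transcript peaks, open points are intronic or intergenic peaks, and the black bar is the last peak of the list. The Akr1b7 exon peaks of F of male 1 form a group at ranks 35 to 60, and the Sgk1 promoter peak of D of male 4 stands at rank 19990 of 21171.

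Esr1 encodes estrogen receptor alpha, lies at chr10:4611593-5005614 and spans 394 kb. It had 33 peaks, of which 2 were transcript peaks. Both lay in the 3′UTR (exon 9) in F of male 1, with scores of 41.9 (28 tags, rank 7424 of 25406) and 21.0 (14 tags, rank 20489). The median transcript peak of that list scored 34.4, so 1 of them stood above it and the other below. No other library had a transcript peak on Esr1. The other 31 peaks comprised 24 in introns and 7 intergenic ones, and 19 of these 31 lay in named repeats. Those in intron 3 on the LINE element L1Md_A were found in F of males 1, 3 and 4, with scores of 50.9, 67.8 and 34.2, within 1 kb of each other but without a shared base.

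Nr3c1 encodes the glucocorticoid receptor and lies at chr18:39410545-39519421 on the minus strand. It had 26 peaks, 6 of them transcript peaks. Exon 1 carried 2 in F of male 1 (scores 47.9 and 21.0, or 32 and 14 tags), and the 3′UTR carried 3 (35.9, 25.5 and 24.0, or 24, 17 and 16 tags). The best of these ranked 5729 of 25406. Exon 4 carried the 1 of F of male 3, with a score of 46.6 (22 tags, rank 5665 of 10143), below the median transcript peak of that list (65.7). F of males 2 and 4 and all D libraries had none. In D the gene had intronic and intergenic peaks only, and 1 of these, in a GA-rich repeat beyond the gene, was shared by D of males 2 and 3. In 4 intron peaks the annotation named a transcript of a neighbouring gene, and Nr3c1 was only the nearest start site.

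Akr1b7 encodes an aldo-keto reductase known as mouse vas deferens protein, an enzyme whose expression in the vas deferens depends on androgen. It lies at chr6:34412334-34423142 and has 10 exons. Every exon carried a peak in F of male 1. Their scores were 1958.4, 3169.7, 2689.1, 2114.2, 1759.3, 1894.1, 1792.2, 1916.5, 1654.5 and 3154.8 from exon 1 to exon 10, corresponding to between 1105 and 2117 tags each. These were ranks 35 to 60 of 25406, and the highest ranked 11 among the 18378 transcript peaks of that library. By gene, Akr1b7 ranked 15 of 9111, with each peak counted for its nearest gene and for the gene of its annotated transcript. No Akr1b7 intron held a peak of its own there, although exons make up 1281 of the 10809 bases of the gene. Together the 10 peaks carried 0.487% of the summed score of the list.

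In F of male 3, exon 9 of Akr1b7 carried a peak of 356.2 (168 tags, rank 102 of 10143). Another 4 peaks were annotated to introns 1, 8 and 9, with scores of 192.9, 220.5, 351.9 and 396.4 (91, 104, 166 and 187 tags). All 4 overlapped an exon, by 55, 105, 41 and 98 bases, so that exons 1, 2, 8, 9 and 10 were covered in this library and exons 3 to 7 were not. With this list's wider peaks of 226 bases, a peak centred beside an exon can be given the intron as its class. F of male 4 had 2 transcript peaks on Akr1b7, on exon 2 (24.9, 16 tags with an exact 95% Poisson interval of 9.1 to 26.0, rank 8938 of 18709) and on exon 3 (35.8, 23 tags, 14.6 to 34.5, rank 2672). F of male 2 and all 4 D libraries had no peak on the gene. Poisson intervals cover counting error only. The number of covered exons differed widely between males of the same diet, with 5 and 2 in the HFD males, against 10 and 0 in the ND males.

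Genes with the pattern most like that of Akr1b7 were looked for among the 39 others with transcript peaks in exactly the same libraries (F of males 1, 3 and 4), by the mean absolute difference of log2 top score. The nearest were Fth1, the ferritin heavy chain (0.96), Gpx5, a glutathione peroxidase secreted by the epididymal epithelium (1.10), and Itm2b (1.23). Gpx5 had top scores of 4950.0, 1933.4 and 31.1 in F of males 1, 3 and 4.

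**Figure D3:**
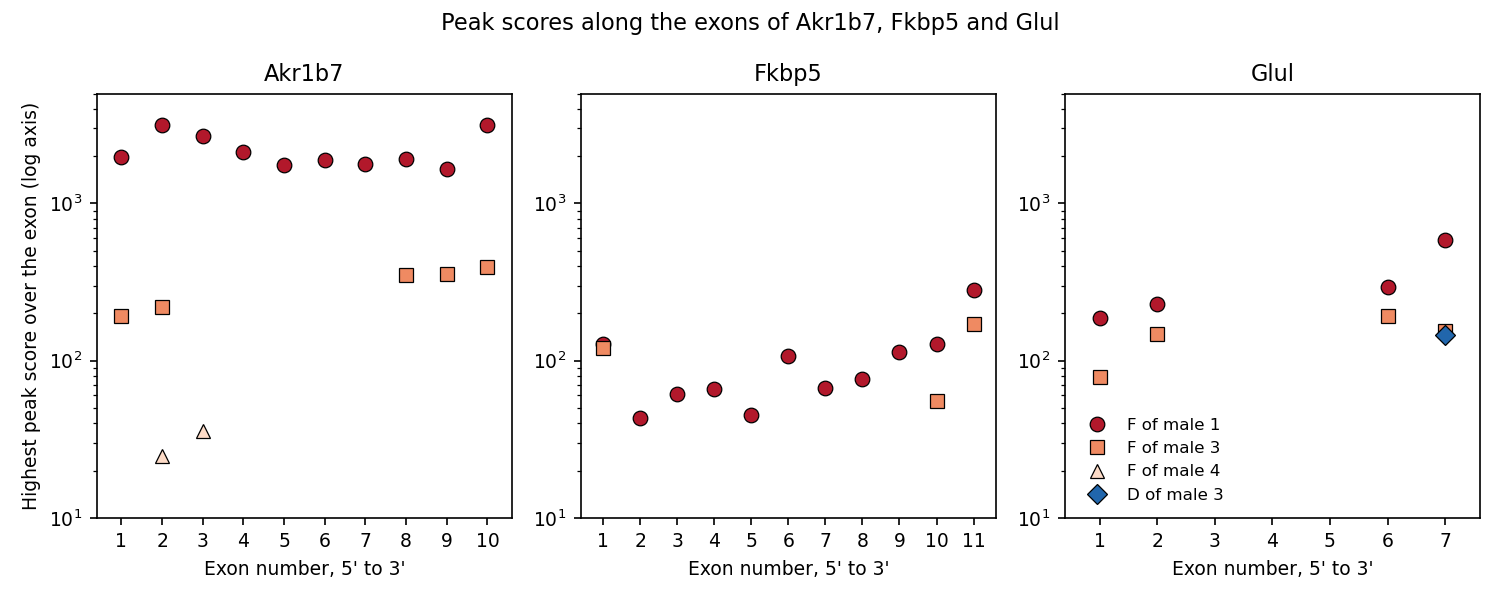
Highest score of a peak overlapping each exon (y axis, log scale) against exon number from 5′ to 3′ for Akr1b7, Fkbp5 and Glul; symbols mark F of males 1, 3 and 4 and D of male 3, and an exon without a symbol had no peak, with scores to be compared within a library. Akr1b7 is covered in all 10 exons in F of male 1 and in 5 in F of male 3, and the only D symbol is on Glul exon 7.

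Fkbp5 encodes a co-chaperone of HSP90 that is induced by glucocorticoids and androgens and lowers the hormone affinity of the glucocorticoid receptor. It lies at chr17:28399094-28517527 on the minus strand. All 11 exons carried a peak in F of male 1, with 13 transcript peaks between 43.4 (29 tags) and 281.5 (188 tags, rank 319 of 25406). The 3 highest lay in exon 11, at the 3′ end of the mRNA, and scored 281.5, 206.6 and 151.2. In F of male 3, exons 1, 10 and 11 carried peaks, scoring 120.8, 55.1 and, for 2 peaks in the 3′UTR, 112.4 and 171.7 (57, 26, 53 and 81 tags). All 4 overlapped a peak of F of male 1. F of males 2 and 4 and all D libraries had no transcript peak on the gene. For exon peaks in the 3′ part of the gene, the nearest start site was that of Tulp1, and these peaks were found through the annotated transcript alone. The gene most like Fkbp5 among 1310 with transcript peaks in the same libraries was accordingly Tulp1, which shares those peaks, followed by Mettl7a1 (mean absolute log2 difference 0.03) and Lman2 (0.08).

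Glul encodes glutamine synthetase, which joins ammonia to glutamate and is induced by glucocorticoids in muscle and other tissues. It lies at chr1:153899944-153909723 and has 7 exons. F of male 1 had 5 transcript peaks: at the start of exon 1 (185.7, annotated as the TTS of the microRNA gene Mir8114), on exon 2 (229.1), on exon 6 (292.0), on the coding part of exon 7 (315.9) and in the 3′UTR (585.4, 391 tags, rank 148 of 25406). F of male 3 had a peak at each of the same 5 places, scoring 78.4, 148.4, 192.9, 154.8 and 101.8, and each overlapped its counterpart. The 3′UTR peak was the highest of the 5 in F of male 1, whereas the exon 6 peak was the highest in F of male 3.

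Glul was also the 1 gene of the 9 with an exon or UTR peak in a D library. D of male 3 had a 3′UTR peak at chr1:153908749-153908937, with a score of 146.5 (60 tags, exact 95% Poisson interval 45.8 to 77.2, rank 1732 of 22726). It overlapped the 3′UTR peaks of F of males 1 and 3. Among transcript peaks of D of male 3 its rank was 31 of 607, and the median of these was 68.4. D of males 1, 2 and 4 had no transcript peak on Glul. F of male 2 had 1 peak within the gene, in intron 2 (47.4, 22 tags), of which 28 bases overlapped an exon of a GENCODE transcript, and F of male 4 had none within it. Of 42 genes with transcript peaks in the same 3 libraries as Glul, the nearest in score were Hnrnpa0 (0.91), 9230110F15Rik (0.92) and Abhd2 (1.16).

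Per1 encodes a core repressor of the circadian clock whose transcription glucocorticoids raise directly. It lies at chr11:69095217-69109960. F of male 1 had 3 peaks, in the 5′UTR of exon 2 (182.7, 122 tags, rank 547 of 25406), on exon 11 (94.3, 63 tags) and upstream of the gene (28.4, 19 tags). No other library had a peak assigned to Per1.

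Tsc22d3 encodes GILZ, a glucocorticoid-induced leucine zipper protein with anti-inflammatory action, and lies at chrX:140539528-140600659 on the minus strand. Its transcript peak, on exon 3 in F of male 1, stood low in that list (19.5, 13 tags, rank 21877 of 25406). The gene's only other peak was intronic, in F of male 3 (67.8, 32 tags).

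Zbtb16 encodes PLZF, a zinc finger repressor that responds to glucocorticoids and is also needed by spermatogonial stem cells. It lies at chr9:48654297-48836222 on the minus strand. Its transcript peak was at the TTS in F of male 3 (31.8, 15 tags, rank 8646 of 10143), and 29 of its 226 bases lay in an exon. The 9 other peaks were intronic: 3 in F of male 1, 4 in D of male 2 and 1 each in D of males 3 and 4.

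Sgk1 encodes a kinase that is induced by glucocorticoids and mineralocorticoids and raises sodium uptake through the epithelial sodium channel. It lies at chr10:21882184-21999903. It had a peak in the 3′UTR in F of male 1 (47.9, 32 tags, rank 5729 of 25406). In D of male 4 it had a promoter-TSS peak at chr10:21993680-21993869 (26.7, 11 tags, exact 95% Poisson interval 5.5 to 19.7, rank 19990 of 21171). That peak ran from position -210 to position -21 relative to the start site of the RefSeq transcript and covered no base of a GENCODE exon. It was a low peak among the 544 transcript peaks of its list, at rank 512. The other 23 peaks of Sgk1 were 17 in introns and 6 intergenic ones, and 17 of these 23 lay in named repeats.

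The promoter under the D peak of male 4 contains the palindromic glucocorticoid response element. The 30 bases around it are shown because the peak lay wholly within the promoter window and covered 190 of its 300 bases. Capitals mark the element, and both sequences are RefSeq promoter sequences on GRCm38.p6, with the Akr1b7 one added for comparison.

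Sgk1 promoter, chr10:21993693-21993722, plus strand: atgcggaaAGAACAGAATGTTCTcggagat

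Akr1b7 promoter, chr6:34412250-34412279, plus strand: acatgaagttccTGTTCTcatgccccaacc

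The Sgk1 element spans 15 bases (chr10:21993701-21993715), starting at position -189. In Akr1b7 the capitals mark an exact AGAACA match, which is 1 arm of that palindrome, on the opposite strand at chr6:34412262-34412267, starting at position -100. Only exact letters were searched for, so an imperfect second arm beside it would not have been found. Promoters of 300 bases each were matched for 7 of the 9 genes, 16 in all because Sgk1, Tsc22d3, Esr1 and Per1 have several. AGAACA on either strand occurred in 19.0% of 32851 promoters and in 5 of these 16, from Akr1b7, Sgk1 and Tsc22d3. The full palindrome, which contains AGAACA on both strands, occurred in 3 of 32851 promoters, of which Sgk1 was 1. GGTCA, 1 arm of the estrogen response element, occurred on either strand in 40.5% of all promoters and in 11 of the 16, and the estrogen response element palindrome in 23 of all promoters and none of the 16. A match of letters is not evidence of binding. Glul (F of males 1 and 3), Akr1b7 (F of male 1) and Fkbp5 (F of male 3) had peaks reaching into their promoter windows by 29 and 1, 27 and 8 bases.

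Peaks of these genes were then compared by position. Of the 55 transcript peaks, 28 (50.9%) shared at least 1 base with a peak of another library, and these lay on Akr1b7, Fkbp5 and Glul. Of the 115 intronic and intergenic peaks, 20 (17.4%) did so, 12 of them in named repeats. Among these 20 were the 4 Akr1b7 peaks of F of male 3 that were classed as intron but overlapped an exon. The 2 kinds differ in other ways too, as the transcript peaks came mostly from F of males 1 and 3, and the difference was not tested. Overlap was not counted for the peaks of all genes. Since the 9 genes were chosen for exon peaks in these lists, nothing is read from these shares. No transcript peak lay in a named repeat. Of the intronic and intergenic peaks, 68 of 115 (59.1%) lay in one, beside 61.6% of such peaks of all genes. They comprised 18 in simple repeats, 14 in LINEs, 14 in SINEs, 11 in LTR elements, 9 in low-complexity sequence and 2 in satellites.

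Outside transcripts, the regions found in most libraries were repeats within introns. A (GGAAA)n repeat in intron 2 of Sgk1 (chr10:21936071-21936470) had a peak in D of males 2, 3 and 4, with scores of 23.5, 197.8 and 77.7 (73, 81 and 32 tags), and none in F. A (GAAA)n repeat in intron 5 of Esr1 (chr10:4876516-4876940) had a peak in F of males 1 and 4 (50.9 and 21.8, or 34 and 14 tags) and in D of male 2 (8.05, 25 tags). A C-rich stretch in intron 3 of Esr1 and a (CA)n repeat in intron 1 of Sgk1 were shared by D of males 2 and 3, and a second (CA)n repeat in that intron by F of male 4 and D of male 2. Reads from such repeats can map to many places in the genome, and how the authors placed them is not given in the sources used here.

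The wider hormone pathway was followed with 9 lists of 152 genes, the 9 genes themselves left out. Of these, 146 were named for at least 1 peak. Transcript peaks were found for 90, 0, 26 and 6 of them in F of males 1 to 4, and for 2, 12, 5 and 3 in D of males 1 to 4. Chaperones and coregulators of the receptors had 19 of 20 in F of male 1 (beside 43.3% of all genes) and 7 in F of male 3 (35.0%, beside 8.58%). In D, males 2 and 3 had 1 each (5.0%, beside 6.52% and 3.65% of all genes). Males 1 and 4 had 0 in D, beside 0.837% and 3.15%, so the D counts were near those of all genes. Hsp90ab1, the HSP90 that holds unliganded receptors, had top scores of 277.0 (rank 324) in F of male 1 and 131.4 (rank 399) in F of male 3. The corresponding scores were 184.2 and 91.2 for Hspa8, a constitutive HSP70. Nrip1, a ligand-dependent corepressor, had 64.4 and 38.2 in these F libraries and 53.7 in D of male 3.

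Other steroid receptors had transcript peaks for 4 of 8 genes in F of male 1, 2 in F of male 3 and 1 in F of male 4, against 2 in D of male 2. The share in F of male 1 was near that of all genes (43.3%), and counts of 1 or 2 of so few genes say little. The peaks counted for Esr2 (95.8 and 63.6 in F of males 1 and 3) are not clearly its own, since the higher lay in the 3′UTR of its neighbour Syne2. Esrrg had 24.9 in F of male 4 and 19.3 in D of male 2. Among 36 other nuclear receptors, F of males 1, 3 and 4 had 16, 7 and 3, and D of males 2, 3 and 4 had 5, 2 and 1. These were shares near those of all genes in F of male 1 (44.4%, beside 43.3%) and in D of male 4 (2.8%, beside 3.15%). The shares were higher than those of all genes in F of male 3 (19.4%, beside 8.58%) and F of male 4 (8.3%, beside 2.55%). The same held in D of male 2 (13.9%, beside 6.52%) and D of male 3 (5.6%, beside 3.65%), and none of this was tested for the list alone. Nr2f6 (73.4 and 97.5), Rxra (38.9 and 86.9) and Nr4a1 (38.9 and 80.6) had peaks in F of males 1 and 3, as did Rara (19.5 and 78.4), which also had one of 9.02 in D of male 2. Rorb differed in that its peaks were in D of males 2, 3 and 4 only (21.3, 119.6 and 72.9).

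Of 25 further glucocorticoid-induced genes, 16 had a transcript peak in F of male 1 and 2 in F of male 3, against 2 in D of male 2 and 1 in D of male 3. The share was 64.0% in F of male 1, above that of all genes (43.3%), but it was close to that of all genes in F of male 3 (8.0%, beside 8.58%), D of male 2 (8.0%, beside 6.52%) and D of male 3 (4.0%, beside 3.65%). The metallothionein genes Mt1 and Mt2, which buffer metal ions, scored 83.8 and 68.9 in F of male 1, and Mt1 also had a peak of 58.6 in D of male 3. Cebpb, a transcription factor, had 79.4 in F of male 1 and a peak of 33 tags in F of male 3. Androgen-responsive genes had 6, 0, 3 and 1 of 8 in F of males 1 to 4. The shares were 75.0% in F of male 1 (beside 43.3% of all genes) and 37.5% in F of male 3 (beside 8.58%). None had a transcript peak in D, which for 8 genes is little below the 0.837% to 6.52% of all genes there. Odc1, the first enzyme of polyamine synthesis, had 73.4 and 53.0 in F of males 1 and 3, Ndrg1 and Sord had 55.4 and 53.9 in F of male 1, and Acpp, prostatic acid phosphatase, had 18.0, 42.4 and 20.2 in F of males 1, 3 and 4. Estrogen-responsive genes had 8 of 12 in F of male 1 (66.7%, beside 43.3% of all genes) and 1 in F of male 3, and none in D. The 1 gene in F of male 3 was 8.3% of the list, as for all genes (8.58%), and 0 of 12 in D is little below the 0.837% to 6.52% of all genes there. Ctsd, the lysosomal protease cathepsin D, had 226.1 and 195.0 in these 2 libraries, and Ltf (lactoferrin) and C3 (complement) had 133.3 and 91.3 in F of male 1.

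Steroid synthesis and metabolism genes had 11, 2 and 1 of 18 in F of males 1, 3 and 4, and 1 each in D of males 1 and 4. The shares in F were 61.1%, 11.1% and 5.6%, beside 43.3%, 8.58% and 2.55% of all genes. In D they were 5.6% each, beside 0.837% and 3.15%, and counts of 1 or 2 say little. Srd5a2, which makes dihydrotestosterone, had 44.9 and 67.8 in F of males 1 and 3, and Hsd17b11 had 19.5 in F of male 1 and 19.8 in D of male 1. The top peak counted for Cyp17a1 in F of male 1 (157.2) lay in the 3′UTR of its neighbour Wbp1l, and the gene was also counted in F of male 3 (67.8). Relatives and targets of SGK1 and TSC22D3 had 5 and 2 of 9 in F of males 1 and 3, and 1 each in D of males 2 and 4. The shares in F were 55.6% and 22.2%, beside 43.3% and 8.58% of all genes. In D they were 11.1% each, beside 6.52% and 3.15%. Tsc22d1 (65.9 and 91.2) and Tsc22d4 (49.4 and 89.0) had peaks in F of males 1 and 3, and the peak counted for Scnn1b in D of male 4 (153.0) lay in the 3′UTR of Cog7. Clock genes had 5 of 10 in F of male 1 and 1 each in D of males 1, 2 and 3, and the count in F of male 1 was near the share of all genes (43.3%). In these D libraries the share was 10.0%, beside 0.837%, 6.52% and 3.65% of all genes, and counts of 1 say little. Tef had 55.4 in F of male 1 and 40.3 in D of male 1, and Bhlhe40 and Dbp had 88.3 and 47.9 in F of male 1.

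Free and DNA-bound RNA were compared within males on the pathway genes, which leave out the 9 genes but were listed with results of these data known. On average 30.5 ± 41.2 of the 146 genes had a transcript peak in F, against 5.5 ± 4.51 in D (SD, n = 4 libraries each). The difference of 25.0 ± 44.1 genes (SD, n = 4 males) was smaller than its spread. F was higher in 3 of 4 males, with an exact two-sided sign-flip permutation p of 0.375, where the smallest p this design allows is 0.125. Set against the share of all genes in the same library, pathway genes lay 7.0 ± 8.71 percentage points above it in F and 0.23 ± 1.19 above it in D. That difference of 6.77 ± 8.88 points was positive in 3 of 4 males and also had an exact permutation p of 0.375. Male 1 decided its size: without male 1 the differences were 4.0 genes and 3.11 points. Without males 1 and 3 together they turned to -4.5 genes and -0.07 points.

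**Figure D4:**
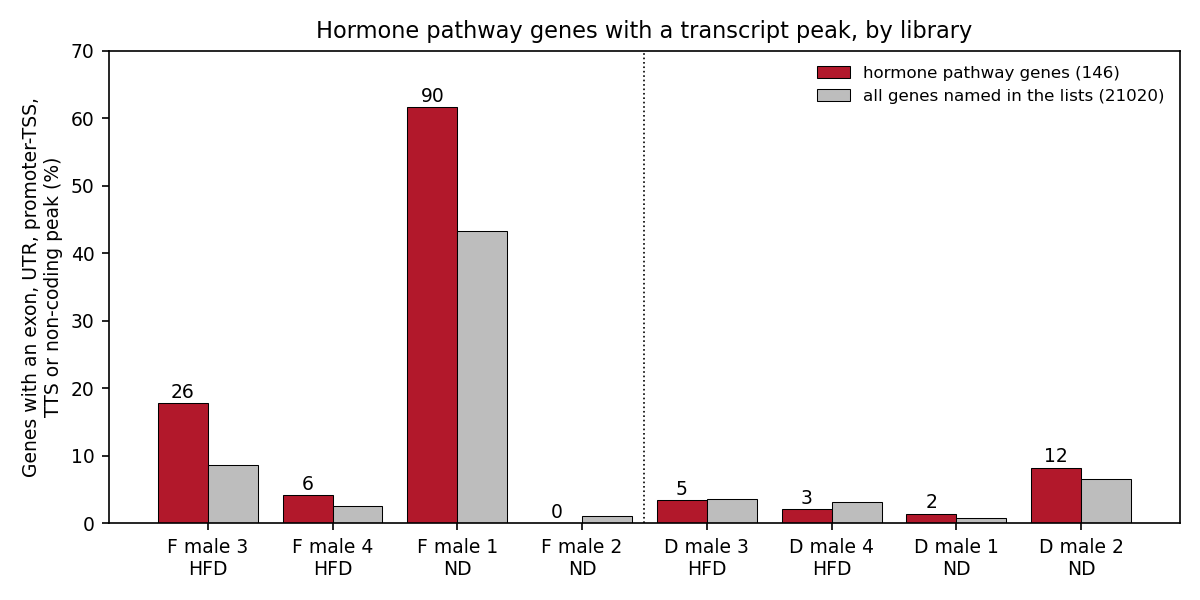
Share of the 146 pathway genes (red, with the number of genes above the bar) and of all 21020 genes named in the lists (grey) that had a transcript peak in each library, with F left of D and HFD males left of ND males. The red bar stands 18.3 and 9.23 percentage points above the grey one in F of males 1 and 3, and within 2 points of it in the other 6 libraries.

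By diet, 26 and 6 pathway genes had a transcript peak in F of the HFD males, against 90 and 0 in F of the ND males. The 2 groups overlapped, and the difference of the means was -29.0 genes (16 in HFD, 45 in ND, exact two-sided permutation p = 1.0 over 6 splits, where the smallest possible is 0.333). In D the counts were 5 and 3 in HFD males, against 2 and 12 in ND males, a difference of -3.0 genes (4 in HFD, 7 in ND, exact p = 1.0). The direction rested on single males. In F the difference was 16 genes without male 1, and in D it was 2.0 genes without male 2. The 9 genes showed no pattern by diet that both males of a group shared, as 5 and 1 of them had a transcript peak in F of the HFD males, against 8 and 0 in F of the ND males.

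Markers of other cells were read from the same lists, where 43.3% of all genes had a transcript peak in F of male 1 and 0.837% to 8.58% in the other libraries, as sperm in the epididymis lie beside its epithelium. Of 15 genes of the epididymal epithelium, 14 had a transcript peak in F of male 1 (all but Pate4), 10 in F of male 3, 1 in F of male 4 (Gpx5) and 0 in F of male 2, against 1 in D of male 2 (Ly6g5c) and 0 in the other D libraries. Their summed score ran from 0 to 49016.5 in F and from 0 to 20 in D. Each summed score given here and for the lists that follow is on the scale of its own library, so the ranges are listed and not compared between fractions. The highest were Gpx5 (4950.0, rank 23), Crisp1 (1846.1) and Clu (1503.3) in F of male 1. Gpx5 was picked above among genes with transcript peaks in exactly the libraries of Akr1b7 (F of males 1, 3 and 4). Nothing is read from that match, and in F of male 4 no other gene of the 15 had a transcript peak.

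Of 12 sperm and spermatid genes, 11 had a peak in F of male 1, 1 in F of male 4 and none elsewhere, with summed scores of 0 to 2131.9 in F and 0 in D. Among them Odf1, Prm2 and Smcp scored 305.4, 301.0 and 170.7 in F of male 1, below the lowest Akr1b7 exon peak of that library. None of the 12 had a transcript peak in F of male 3, where 8.58% of all genes had one. All 6 stromal genes had peaks in F of male 1 (Col1a1 166.2, Col3a1 163.2 and Dcn 140.7) and none elsewhere, with summed scores of 0 to 2617.0 in F and 0 in D. Of 6 erythroid genes, 5 had peaks in F of male 1, 2 in F of male 4 (Hba-a1 and Hba-a2) and 1 in D of male 4. Summed scores were 0 to 10771.3 in F and 0 to 106.9 in D. Hba-a1 and Hba-a2 were both counted from 1 peak of 60.6 in F of male 4, which is also the summed score there. Their top peak in F of male 1 was likewise a single one, annotated to Hba-a1 with Hba-a2 as the nearest gene. Hbb-bs had 4658.0 in F of male 1, on a peak annotated to Hbb-b1 with Hbb-bs as the nearest gene. Of 10 leukocyte genes, 9 were named in the lists, and 4 of these had peaks in F of male 1 (44.4%, beside 43.3% of all genes, with Cd74 at 88.3 and Lyz2 at 86.8) and 1 each in D of males 2 and 3 (Itgam 109.9 in D of male 3), with summed scores of 0 to 359.3 in F and 0 to 109.9 in D. The part of these cells in the peaks of the 9 genes was not tested.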

How the data were processed

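The lists of significant peaks of 8 Dnmt2-/- libraries were used (F and D of 4 males). Wild-type libraries (8) were left out. Per the paper, the authors used cutadapt and Trimmomatic 0.36 for trimming and Hisat2 for alignment to GRCm38, called peaks in each library with HOMER 4.9 and annotated them on mm10. The deposited score is the authors' own and its unit is not stated. Within a list, all scores under 100 fell on whole steps (tolerance 0.2 tags), so tags were inferred. All peaks carry 1 strand, so sense and antisense cannot be told apart. Tags in peaks amounted to between 964711 and 9913057 per library. Columns of values not used: 0.

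The 9 genes and all gene lists were chosen with earlier results of these data known. A gene was counted in a library when at least 1 exon, UTR, promoter-TSS, TTS or non-coding peak named it as the nearest gene or by its transcript. Named are all 9 genes, the 3 best-ranked genes of each list, pathway genes in 3 or more libraries, the 3 genes most alike to each of the 9 that had transcript peaks in at least 2 libraries, and Trdmt1; some genes that this rule picks are not reported here. Nr3c1 was nearest to Hcfc1, Renbp and Senp6, and Sgk1 to Dusp4, Trp53i11 and Tm9sf4. F and D were paired by male, as both fractions were prepared from each male, and tested by an exact sign-flip permutation test over 16 sign patterns; diets by an exact permutation test over 6 splits. With separate males as replicates, p-values measure the spread between males. Overlap meant at least 1 shared base. Intervals cover 95% and counting error only. Exons and sequences came from GENCODE M21, promoters from RefSeq. Motifs were searched in promoters only. Python 3.11.15, pandas 2.3.3, numpy 2.4.6, scipy 1.17.1 and matplotlib 3.10.9 were used, and the tests were tested on simulated data. Alternatives were a score of at least 2 times the lowest, equal list lengths of 3427 peaks, annotation by transcript alone, exon and UTR peaks only, no repeats, each male left out, no pairing, 50% overlap, and, chosen after seeing the data, exon overlap in GENCODE and leaving out males 1 and 3.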

Additional observations from a re-analysis of the deposited data

Results flagged for a closer look

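The number of peaks assigned to Per1 was 3 in F of male 1 and 0 in F of each other male. A gap of this size arises by construction for any gene whose peaks lie in 1 library, and the gene was chosen for its peaks, so the value is given as a description. For values that are not mostly 0, chance flags about 1 in 20 groups.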

How the results depend on the processing

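The differences of pathway genes kept their direction under a higher score minimum, equal list lengths, annotation by transcript alone, exon and UTR peaks only, and without repeats. Equal list lengths made them smaller, with 9.0 genes and 3.11 points for F minus D, and -2.5 genes in F and -0.5 in D for HFD minus ND. Without males 1 and 3 (chosen after seeing the data), F minus D turned to -4.5 genes and -0.07 percentage points. Leaving out each male in turn gave 4.0 to 37.33 genes and 3.11 to 9.96 points for F minus D, -74.0 to 16 genes for HFD minus ND in F and -8.0 to 2.0 in D. Without the replicate block, that is with unpaired libraries, the exact permutation p of F minus D was 0.314 for the 25.0 genes and 0.257 for the 6.77 points. Transcript peaks of the 9 genes occurred in 16 of 72 pairs of gene and library, in 9 with equal list lengths and in 3 without F of males 1 and 3. Peaks of the 9 genes that overlapped a peak of another library numbered 48, and 24 when 50% of both had to be shared. Fewer peaks or libraries enter these alternatives by construction. Genes under 6 tags (14 in D of male 2) are not seen at this depth, and genes or exons with more tags may lack a peak if they did not stand out locally.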
